A study of Mus musculus with 4 samples.

Results

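The 35 genes described here encode the glucose transporter, the enzymes of glycolysis and their regulators, the lactate dehydrogenases and lactate carriers, the control of pyruvate dehydrogenase, and the makers and breakers of glycogen. They were taken by symbol from a table of 55467 gene IDs, and all 35 were found. RNA was sequenced from primary astrocyte cultures of CD38 KO mice (2 libraries, named CD38 KO 1 and CD38 KO 2) and of WT mice (2 libraries, WT 1 and WT 2). CD38 sits on the cell surface and breaks down NAD+, the cofactor that glycolysis and lactate dehydrogenase also use. Per the labels' protocols, the cells of all 4 libraries came from cerebral cortices of pups aged 1 to 3 days. They were grown for 14 days in medium with 10% serum, shaken for 12 h to remove loosely attached cells, replated and harvested 5 days later. Neither group received a drug, and the labels give no strain, sex, deleted exon, or number of animals behind a culture, so loss of Cd38 and a strain difference cannot be told apart. The series asks what astrocyte CD38 does for synapse formation and social memory.

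Glycolysis splits glucose into pyruvate in the cytosol and makes ATP and NADH on the way. Pyruvate then enters mitochondria through pyruvate dehydrogenase or is turned into lactate, which regenerates NAD+. Astrocytes are known for active glycolysis, for releasing lactate through monocarboxylate carriers and for holding most of the brain's glycogen, a branched store of glucose.

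The depth behind the values, estimated from the steps in low values, was about 28800000 fragments in each CD38 KO library, 26600000 in WT 1 and 28000000 in WT 2. Levels are in FPKM, fragments scaled to transcript length and to the mapped fragments of the library, so genes can be compared per length. Cd38 checked the labels: it stood at 0.0222 and 0.0222 FPKM in CD38 KO 1 and 2, against 3.13 and 3.45 FPKM in WT 1 and 2. All 10 astrocyte markers were present in the 4 libraries, with Gfap at 1198 and 1225 FPKM in CD38 KO and 1390 and 1330 FPKM in WT, and 2 of the 10 markers passed the test upward and 6 downward. Microglia and macrophage markers were higher in CD38 KO. Of 15 such markers 14 were tested and 13 rose, their sum was 867 and 775 FPKM in CD38 KO against 175 and 164 FPKM in WT, none was at 0, and their median log2 change was 2.42. Of 8 neuron markers 4 were tested: Stmn2 rose (54.8 and 56.1 FPKM in CD38 KO, 30.7 and 28.8 FPKM in WT) and Gad1 fell (46.1 and 41.7 FPKM in CD38 KO, 71.4 and 81.5 FPKM in WT), while the defining markers Rbfox3 and Snap25 were at most 0.116 FPKM in every library. Of 8 oligodendrocyte lineage markers 5 were tested, and Pdgfra fell to 1.596 and 1.24 FPKM in CD38 KO, against 3.37 and 4.84 FPKM in WT. None of 5 tested fibroblast markers passed. The 5 endothelial markers were below the level tested and summed to 1.74 and 1.72 FPKM in CD38 KO and 0.801 and 0.531 FPKM in WT. Most of that was Pecam1 (1.39 and 1.10 FPKM in CD38 KO, 0.542 and 0.214 FPKM in WT), and Cldn5 was listed at 0 in 3 libraries. The part of these other cells in the values below was not tested, and in such bulk RNA fewer cells of a type and less RNA per cell cannot be told apart.

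The 3 genes on which the results turn are Pfkp, Aldoc and Ldhb, since they alone passed the test in each of the 4 fits that left out 1 library. Their promoters are shown as the 250 bases before the RefSeq start, in RefSeq's GRCm38.p6 sequence, 5′ to 3′ on the gene's strand. Capitals mark GCGTG or ACGTG on either strand, the core letters of the site that hypoxia-inducible factors are known to bind at many glycolytic genes. Aldoc has a second RefSeq start, which is not shown.
Pfkp (chr13:6648772-6649021, minus strand): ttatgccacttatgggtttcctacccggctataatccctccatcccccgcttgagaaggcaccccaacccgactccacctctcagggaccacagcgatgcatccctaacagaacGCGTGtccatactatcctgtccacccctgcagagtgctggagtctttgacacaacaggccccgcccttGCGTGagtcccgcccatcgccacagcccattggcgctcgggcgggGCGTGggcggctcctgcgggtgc
Aldoc (chr11:78322823-78323072, plus strand): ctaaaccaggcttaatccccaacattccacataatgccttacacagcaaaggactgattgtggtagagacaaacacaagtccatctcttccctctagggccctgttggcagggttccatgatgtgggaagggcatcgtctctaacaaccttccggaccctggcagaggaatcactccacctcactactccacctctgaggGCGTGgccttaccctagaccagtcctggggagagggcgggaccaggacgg
Ldhb (chr6:142507958-142508207, minus strand): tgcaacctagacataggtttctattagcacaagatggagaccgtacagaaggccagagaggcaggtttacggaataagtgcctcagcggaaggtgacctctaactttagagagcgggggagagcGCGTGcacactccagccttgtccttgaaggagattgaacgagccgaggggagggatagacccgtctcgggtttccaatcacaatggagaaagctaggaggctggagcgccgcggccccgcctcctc

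Each of these 3 stretches holds GCGTG and none holds ACGTG. Pfkp has the motif 3 times, beginning 136, 68 and 23 bases before the start, Aldoc once at 50 bases and Ldhb once at 126 bases. With the 50 bases after the start, not shown, Pfkp has GCGTG 4 times. Aldoc then has GCGTG 2 times and ACGTG 1 time. RefSeq windows of 250 bases before to 50 after a start were found for all 35 genes, 52 windows in all. GCGTG was in 53.8% of these 52 windows and in 32.4% of all 32851 RefSeq windows, and ACGTG in 26 of the 52 and in 19.6% of all. The E-box CACGTG, which contains ACGTG, was in 13.5% and 7.15%. Either core was in 76.9% of the 52 windows and in 43.8% of all RefSeq windows. It was in 6 of 7 windows of the 6 genes that rose and in 3 of 3 windows of the 2 genes that fell. Of the 42 windows of genes that did not pass, 31 held it. A match of letters is a description of the window and not a bound site.

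Of the 35 genes 6 rose in CD38 KO, 2 fell and 27 did not pass. The test was limma on log2(FPKM + 1) over the 13064 genes whose mean reached 1 FPKM, and a gene was called at a Benjamini-Hochberg adjusted p under 0.05. Over all genes tested 14.4% were called, 8.0% higher and 6.35% lower, and 22.9% of the 35 genes were called. Hk2, Gpi1, Pfkfb3, Ldhb, Pdk4 and Pgm2 were higher and Pfkp and Aldoc lower. The changes were small, between -0.61 and 0.56 on the log2 scale, with a median of 0.084 against 0.001 over all genes tested. Of the 27 genes that did not pass, 23 had a log2 change above 0. With the called genes, 29 of the 35 log2 changes were above 0, where 50.2% of all tested genes were, and 27 or 28 of the 35 under the other scalings. These directions need not be independent of each other. Gapdh, Aldoa, Tpi1, Pgk1, Pgam1, Eno1, Pkm and Ldha were each higher in replicate 1 than in replicate 2 of both genotypes. Other genes, such as Pfkm and Gbe1, were not. Both CD38 KO libraries lay above both WT libraries for 21 genes and below them for 4, against 30.4% and 29.5% (59.9% together) of all genes tested. The 35 genes together made up 1.93% and 1.85% of the summed FPKM in CD38 KO and 1.74% and 1.68% in WT. All 35 passed the filter on low values.

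**Figure D1:**
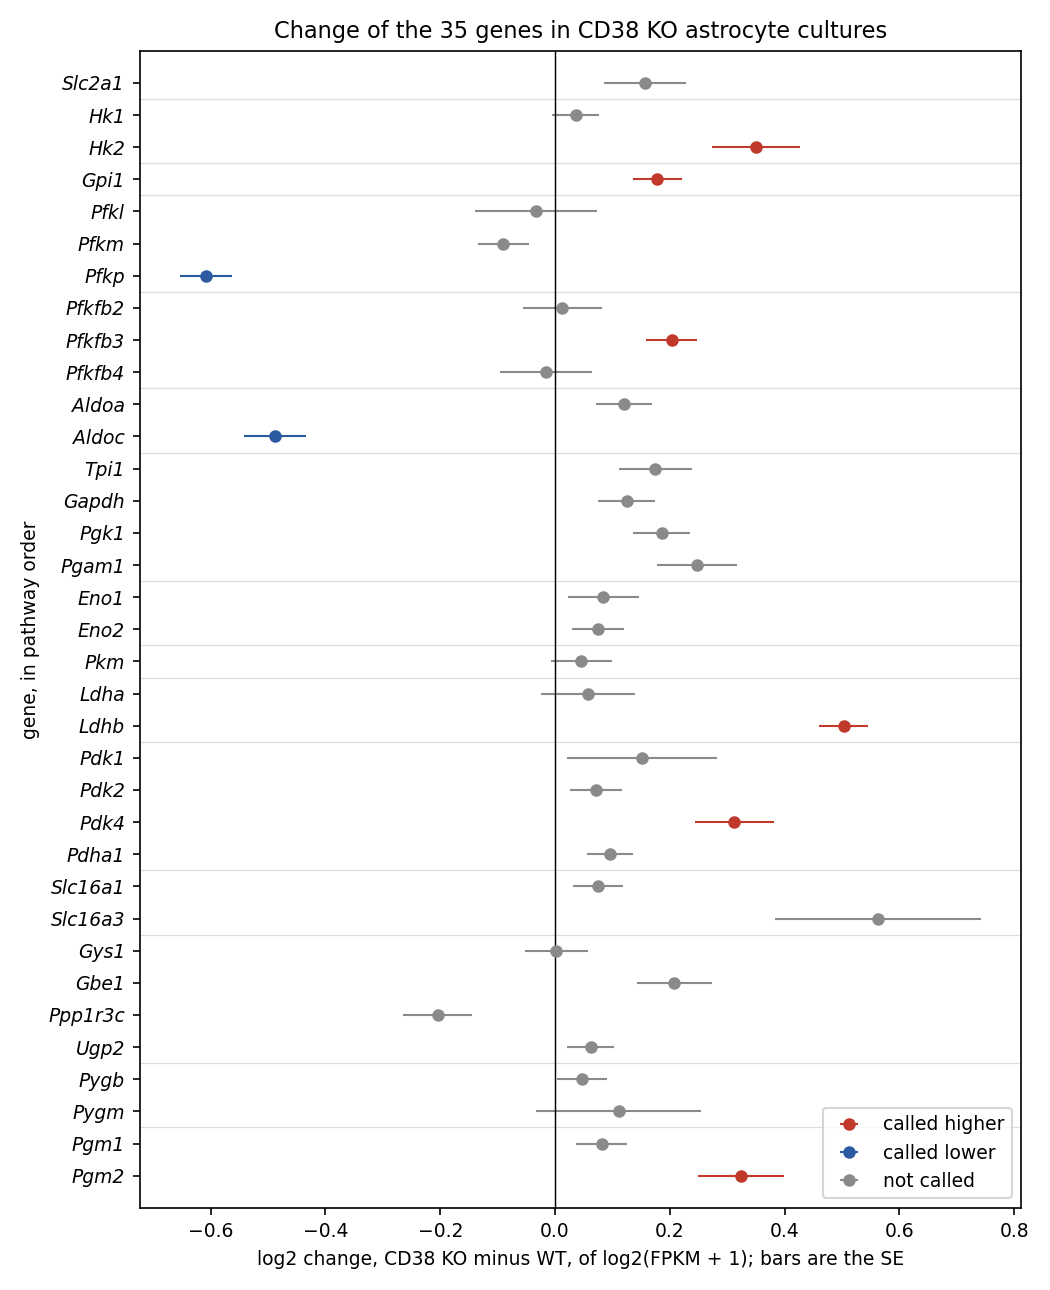
Log2 change (CD38 KO minus WT, of log2(FPKM + 1)) of the 35 genes in pathway order, with points for the limma estimate and bars for its SE; 2 libraries per genotype. Pfkp (-0.61) and Aldoc (-0.49) stand far left and Ldhb (0.50) far right among the called genes, while most uncalled genes lie a little above 0.

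Levels differed widely between steps. Gapdh, which oxidises the split sugar and makes NADH, had the highest mean at 1403 FPKM over the 4 libraries, followed by Ldhb at 1380 FPKM and the enolase Eno1 at 1097 FPKM. In all, 17 of the 35 genes had a mean above 100 FPKM and 5 a mean under 10 FPKM, of which the lactate exporter Slc16a3 at 1.67 FPKM and the muscle glycogen phosphorylase Pygm at 1.29 FPKM were lowest. Genes such as Gapdh, Pgk1, Aldoa, Ldha and Pgam1 have processed pseudogenes whose reads may be shared with them. How the authors' counting treated such reads is not given in the sources used here. Adding the entries under a member's own symbol, or that symbol with -ps, added at most 0.62% to its level. Entries under any other name were not added, so this does not measure how many reads are shared.

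At entry into the pathway, the minor hexokinase rose. Hk2, the inducible hexokinase, had 6.13 and 6.06 FPKM in CD38 KO 1 and 2, against 4.49 and 4.64 FPKM in WT 1 and 2. Both CD38 KO values were above both WT values, a 1.33-fold difference (log2 change 0.35, SE 0.08, adjusted p = 0.0379). Hk1, the abundant hexokinase of brain, had 107 and 109 FPKM in CD38 KO and 107 and 104 FPKM in WT and did not pass (adjusted p = 0.610). Hk2 made up 5.41% and 5.25% of the sum of Hk1 and Hk2 in CD38 KO and 4.04% and 4.26% in WT, with Hk3, described below among the related genes, not in that sum. Slc2a1, the glucose transporter GLUT1, had 46.3 and 47.6 FPKM in CD38 KO and 45.0 and 39.3 FPKM in WT and did not pass (0.217). Gpi1, the isomerase that follows hexokinase, rose to 661 and 665 FPKM in CD38 KO, against 599.9 and 572 FPKM in WT, without overlap but only 1.13-fold (adjusted p = 0.0490). The calls of Hk2 and Gpi1 ended when any 1 library was left out, with adjusted p of 0.148 to 0.169 and 0.125 to 0.252.

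The committed step showed the clearest decrease. Pfkp (ENSMUSG00000021196, chromosome 13, 6579768 to 6648777, GRCm38), the platelet-type subunit of phosphofructokinase, had 53.8 and 51.2 FPKM in CD38 KO 1 and 2. In WT 1 and 2 it had 80.1 and 81.0 FPKM. The genotypes were far apart beside the spread within each (52.5 ± 1.86 and 80.6 ± 0.670 FPKM, SD, n = 2 each), and Pfkp fell 1.53-fold (log2 change -0.61, SE 0.05, adjusted p = 0.00110). All 15 alternatives run also called it, with adjusted p up to 0.0240 in the fits without 1 library. The annotation places Pitrm1 on the opposite strand of Pfkp with an overlap, and whether the counting used the strand of the stranded libraries is not given.

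The other phosphofructokinase subunits did not pass. Pfkm, the muscle type and the main one here, had 171 and 179 FPKM in CD38 KO and 189 and 183 FPKM in WT (adjusted p = 0.250). Pfkl, the liver type, had 69.0 and 55.7 FPKM in CD38 KO and 66.2 and 60.8 FPKM in WT, and the groups overlapped (0.871). Summed over the 3 genes, phosphofructokinase RNA was 294 and 286 FPKM in CD38 KO and 335 and 325 FPKM in WT. Pfkp made up 18.3% and 17.9% of that sum in CD38 KO and 23.9% and 24.9% in WT.

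Pfkfb3, which makes the strongest activator of phosphofructokinase, rose. It had 91.8 and 90.7 FPKM in CD38 KO and 81.1 and 77.2 FPKM in WT, with no overlap and a 1.15-fold difference (log2 change 0.20, SE 0.05, adjusted p = 0.0391). That call ended when any 1 library was left out (adjusted p 0.0868 to 0.174). Its relatives Pfkfb2 and Pfkfb4 were near 9.98 and 5.22 FPKM with overlapping groups (adjusted p = 0.916 and 0.919).

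Among the aldolases, which split the phosphorylated sugar, the astrocyte-typical form fell. Aldoc (ENSMUSG00000017390, chromosome 11, 78322968 to 78327781) had 248 and 272 FPKM in CD38 KO 1 and 2. In WT 1 and 2 it had 365 and 363 FPKM. All CD38 KO values were below all WT values, and Aldoc fell 1.40-fold (log2 change -0.49, SE 0.05, adjusted p = 0.00431). Leaving out 1 library gave adjusted p of 0.0205 to 0.0483, and with no filter on low values the call ended (0.0536). Aldoa, the widespread aldolase, had 983 and 926 FPKM in CD38 KO and 895 and 862 FPKM in WT and did not pass (0.170). The sum of both was 1231 and 1198 FPKM in CD38 KO and 1260 and 1225 FPKM in WT, and Aldoc gave 20.1% and 22.7% of it in CD38 KO and 29.0% and 29.6% in WT. Aldoc is also used as an astrocyte marker, and the sum of the 10 astrocyte markers was 3773 and 3647 FPKM in CD38 KO against 4428 and 4376 FPKM in WT. The markers did not move together, as 2 were called higher and 6 lower. Glul, a large part of the sum, had 1273 and 1154 FPKM in CD38 KO and 1653 and 1701 FPKM in WT. Whether these marker differences bear on Aldoc was not tested.

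**Figure D2:**
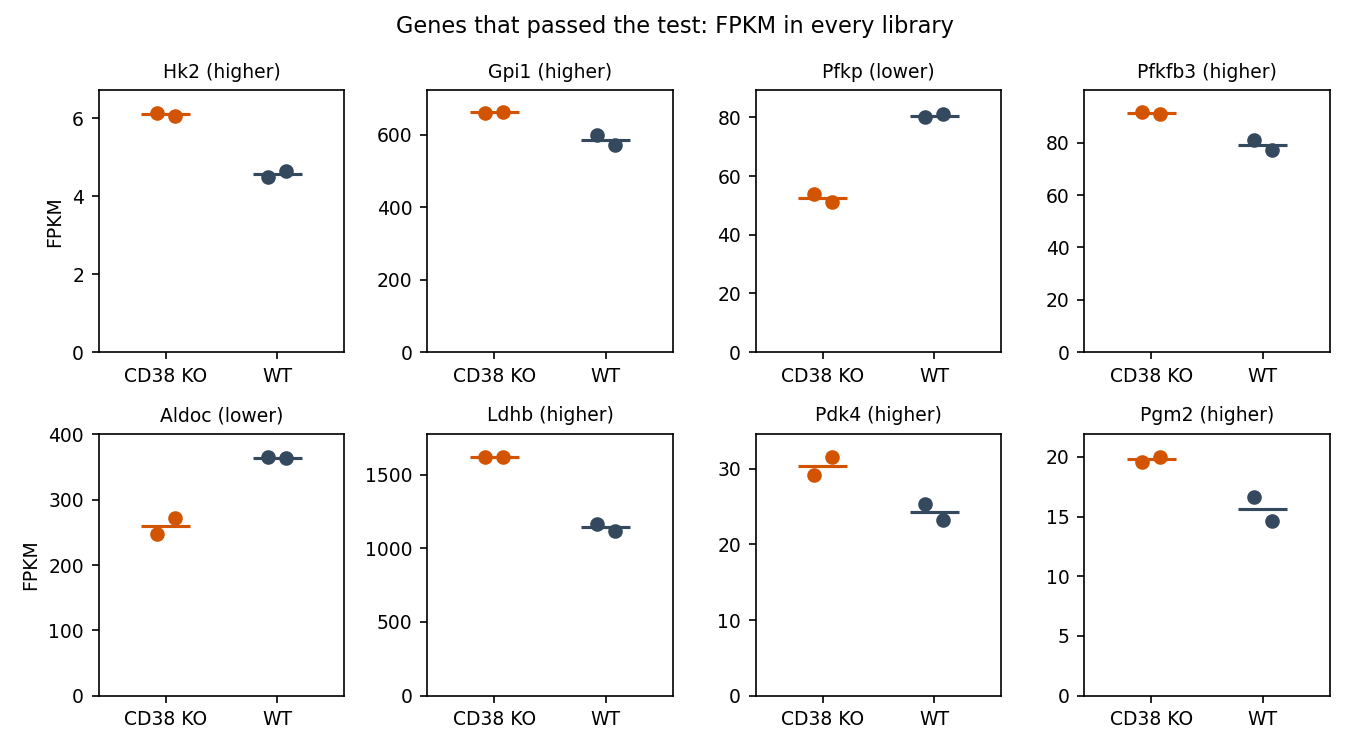
FPKM of the 8 called genes in every library (points) with the group mean (bar), CD38 KO left and WT right, each axis starting at 0. The 2 libraries of a genotype lie close together in every panel, and no panel has overlapping groups.

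The lower steps of glycolysis were all slightly higher in CD38 KO and none passed. Tpi1, Gapdh, Pgk1 and Pgam1, which carry the triose phosphates on to phosphoglycerate, had log2 changes of 0.17, 0.13, 0.19 and 0.25. Each had both CD38 KO libraries above both WT libraries, as did 30.4% of all genes tested. Each also had an unadjusted limma p under 0.05, as did 30.3% of all genes tested, counting both directions. The share of all genes with both traits was not computed. Their adjusted p were 0.133, 0.164, 0.0633 and 0.0732. Gapdh, often used as a loading control, had 1512 and 1417 FPKM in CD38 KO and 1363 and 1321 FPKM in WT. Of the 15 alternatives run, 2 called Pgam1 and 1 called Pgk1, quantile normalization among them for both (0.0378 and 0.0470). Eno1 had 1162 and 1096 FPKM in CD38 KO and 1117 and 1014 FPKM in WT, with overlap (0.420). The neuron-type enolase Eno2 had 39.6 FPKM in both CD38 KO libraries and 37.0 and 38.1 FPKM in WT (0.334), beside neuron marker sums of 133 and 137 FPKM in CD38 KO and 136 and 147 FPKM in WT. Pkm, pyruvate kinase, had 915 and 857 FPKM in CD38 KO and 881 and 836 FPKM in WT (0.611).

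Of the lactate dehydrogenase subunits, Ldhb passed and Ldha did not. Ldhb (ENSMUSG00000030246, chromosome 6, 142490249 to 142507957), the heart-type subunit, had 1616 and 1619 FPKM in CD38 KO 1 and 2. In WT 1 and 2 it had 1163 and 1119 FPKM. The CD38 KO libraries were nearly equal and far above both WT libraries, and Ldhb rose 1.42-fold (log2 change 0.50, SE 0.04, adjusted p = 0.00166). Its call held without any 1 library (adjusted p up to 0.0404) and ended with no filter on low values (0.0517). Ldha, the muscle-type subunit, had 394 and 349 FPKM in CD38 KO and 378 and 336 FPKM in WT, with overlap and adjusted p = 0.687. The FPKM of Ldhb was 4.10 and 4.64 times that of Ldha in CD38 KO, and 3.07 and 3.33 times in WT. Ldhb gave 80.4% and 82.3% of the sum of both in CD38 KO and 75.5% and 76.9% in WT.

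**Figure D3:**
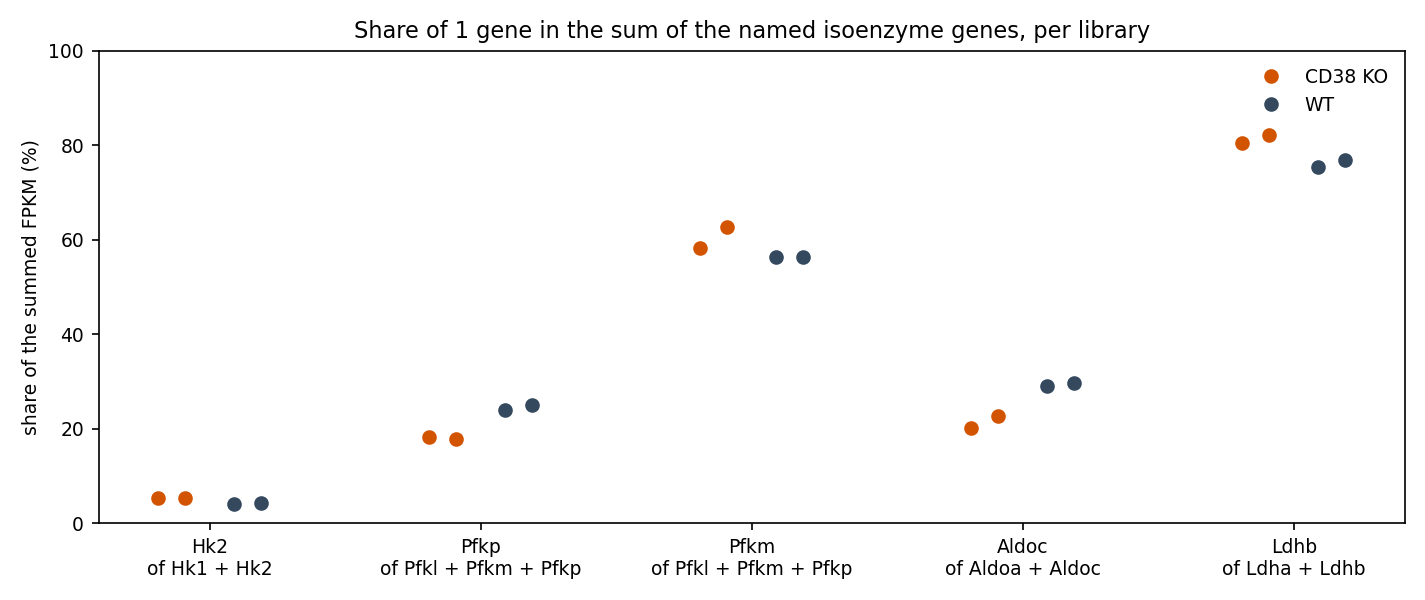
Share (%) of a gene in the summed FPKM of the genes of its enzyme among the 35, named under each group, 1 point per library, CD38 KO left and WT right. Aldoc and Pfkp shares are lower in both CD38 KO libraries (20.1% and 22.7% for Aldoc, 18.3% and 17.9% for Pfkp) than in either WT library, and Hk2, Pfkm and Ldhb shares are higher. The level of Pfkm itself is not higher (171 and 179 FPKM in CD38 KO, 189 and 183 FPKM in WT).

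Within a library, the ratio of a pair of genes does not depend on scaling between libraries, and 9 such ratios were compared. The log2 ratio of Aldoc to Aldoa averaged -1.88 in CD38 KO and -1.27 in WT, a difference of -0.61. The ratio of Ldhb to Ldha averaged 2.12 in CD38 KO and 1.68 in WT, a difference of 0.45, and that of Pfkp to Pfkl -0.24 in CD38 KO and 0.34 in WT, a difference of -0.58. Those of Hk2 to Hk1, Pdk4 to Pdk2 and Slc16a3 to Slc16a1 differed by 0.38, 0.25 and 0.85. None of these 6 ratios overlapped between genotypes, while those of Eno2 to Eno1, Pfkm to Pfkl and Pygm to Pygb did. Of single genes tested, 59.9% did not overlap, and the share over other pairs of genes was not computed. All of the 6 except Slc16a3 to Slc16a1 include a called gene, so they are not separate from those calls. With 2 libraries against 2 the exact permutation test, two-sided, cannot give less than p = 0.333, which is the value of all 6 (adjusted p = 0.5 over the 9 ratios).

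The gate from pyruvate to mitochondria had 1 higher kinase. Pdk4, which phosphorylates and switches off pyruvate dehydrogenase and is induced by fasting in muscle, had 29.2 and 31.6 FPKM in CD38 KO and 25.4 and 23.2 FPKM in WT. The groups did not overlap, and Pdk4 rose 1.25-fold (log2 change 0.31, SE 0.07, adjusted p = 0.0381), a call that ended without any 1 library (0.0801 to 0.190). Pdk2, the main kinase here, had 59.2 and 61.8 FPKM in CD38 KO and 57.4 and 57.7 FPKM in WT (adjusted p = 0.354). Pdk1 was near 10.2 FPKM with overlap (0.493), and Pdha1, the catalytic subunit that these kinases act on, had 141 and 138 FPKM in CD38 KO and 132 and 129 FPKM in WT (0.180).

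The lactate carriers did not pass. Slc16a1, the carrier MCT1, had 273 and 264 FPKM in CD38 KO and 261 and 250 FPKM in WT (adjusted p = 0.317). Slc16a3, the exporter MCT4 of strongly glycolytic cells, had 2.56 and 1.82 FPKM in CD38 KO and 0.927 and 1.39 FPKM in WT. Its groups did not overlap, but the libraries of each genotype lay far apart (log2 change 0.56, SE 0.18, adjusted p = 0.0974). The microglia and macrophage markers differed in the same direction, as given above.

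None of the 6 genes of glycogen synthesis and breakdown passed. Gys1, glycogen synthase, had 25.8 and 24.2 FPKM in CD38 KO and 25.03 and 24.9 FPKM in WT (adjusted p = 0.986). Ugp2, which makes the UDP-glucose that the synthase uses, had 128 and 132 FPKM in CD38 KO and 124 and 124 FPKM in WT (0.368). Gbe1, the branching enzyme, had 63.2 and 70.4 FPKM in CD38 KO and 59.3 and 56.0 FPKM in WT without overlap (0.0987). Ppp1r3c, a subunit that brings protein phosphatase to glycogen and favours its synthesis, had 22.4 and 23.3 FPKM in CD38 KO and 27.5 and 25.5 FPKM in WT, also without overlap and not passing (0.0820). Pygb, the brain phosphorylase that releases sugar from glycogen, had 303 and 291 FPKM in CD38 KO and 292 and 283 FPKM in WT (0.522), and Pygm lay between 1.09 and 1.54 FPKM (0.652).

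Of the phosphoglucomutases, Pgm1, which links glycogen to glycolysis, had 55.5 and 56.9 FPKM in CD38 KO and 53.8 and 52.4 FPKM in WT (adjusted p = 0.291). Pgm2, whose human counterpart acts on pentose phosphates, had 19.6 and 20.02 FPKM in CD38 KO and 16.7 and 14.6 FPKM in WT. Its groups did not overlap, and it rose 1.27-fold (log2 change 0.32, SE 0.08, adjusted p = 0.0439). The call ended without any 1 library (0.0572 to 0.206). Pgm2 is the only one of the 35 genes on chromosome 5, where it lies 20.2 Mb from Cd38.

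Other genes of these pathways were read from lists of genes that are not among the 35. Over all genes tested 14.4% were called, a share to hold beside each count below. The shares called were 12.5% in glycolysis and glucose uptake, 30.0% in pyruvate entry and shuttles and 37.5% in carriers. They were 14.3% in glycogen, 17.4% in low oxygen and 22.2% in PPAR. Of 16 tested genes of glycolysis and glucose uptake, 1 was higher, 1 lower and 14 not called. Hk3, the hexokinase of white blood cells, had 6.34 and 6.05 FPKM in CD38 KO and 0.784 and 0.963 FPKM in WT. It rose 7.09-fold (adjusted p = 0.000344), beside the microglia and macrophage marker sums of 867 and 775 FPKM in CD38 KO and 175 and 164 FPKM in WT. In CD38 KO its level was thus about that of Hk2. Slc2a4, the insulin-responsive transporter GLUT4, had 1.15 and 0.962 FPKM in CD38 KO and 2.84 and 4.45 FPKM in WT and fell 3.46-fold (adjusted p = 0.0153), a call that ended in 3 of the 4 fits without 1 library (up to 0.124).

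Genes for the entry of pyruvate into mitochondria and for the shuttles that return NAD+ to the cytosol were called in 6 of 20 cases, 4 higher and 2 lower. Got1, the cytosolic aminotransferase of the malate-aspartate shuttle, had 38.02 and 36.1 FPKM in CD38 KO and 25.6 and 26.0 FPKM in WT (adjusted p = 0.00316). Pcx, pyruvate carboxylase, the enzyme by which astrocytes refill the citric acid cycle, had 193 and 188 FPKM in CD38 KO and 262 and 252 FPKM in WT (0.00283). Both calls held in all 4 fits without 1 library (up to 0.0486). Mpc1, part of the mitochondrial pyruvate carrier, rose 1.20-fold (0.0116) and Mdh1, the cytosolic malate dehydrogenase, 1.18-fold (0.0194), calls that ended without any 1 library (up to 0.0869 and 0.135).

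In the family of monocarboxylate carriers and their partners 2 of 8 tested genes were higher and 1 lower. Slc16a6 and Slc16a10, carriers of the same family that are not known for lactate, rose to 24.0 and 2.27 FPKM on average in CD38 KO, against 18.1 and 0.577 FPKM in WT (adjusted p = 0.0139 and 0.0125). Emb, which brings carriers to the membrane, fell to 1.51 FPKM in CD38 KO, against 3.59 FPKM in WT (0.00943). These 3 calls ended in 4, 3 and 3 of the 4 fits without 1 library (up to 0.107, 0.0781 and 0.0801).

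Among 21 further glycogen genes 1 was higher and 2 lower. Prkag2, a regulatory subunit of AMP-activated kinase whose mutations cause glycogen storage in human heart, had 51.1 and 49.4 FPKM in CD38 KO and 95.3 and 95.5 FPKM in WT. It fell 1.90-fold (log2 change -0.91, adjusted p = 0.000202) and was called in all 15 alternatives. Pygl, the liver phosphorylase, had 8.45 and 8.55 FPKM in CD38 KO and 5.34 and 5.26 FPKM in WT (0.00535), and Ppp1r3f fell to 2.33 FPKM on average in CD38 KO, against 4.19 FPKM in WT (0.0162). The calls of Pygl and Ppp1r3f ended in 3 and 4 of the 4 fits without 1 library (up to 0.0686 and 0.103).

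Genes of the response to low oxygen, which include known partners of the glycolytic genes in that response, were called in 4 of 23 cases, 17.4%. Ero1l, Bnip3l and P4ha1 rose 1.31-fold, 1.15-fold and 1.20-fold (adjusted p = 0.00737, 0.0363 and 0.0480), and Ndrg1 fell to 72.7 and 72.8 FPKM in CD38 KO, against 106 and 94.7 FPKM in WT (0.00858). None of the 4 was called in all fits without 1 library (up to 0.0788, 0.159, 0.217 and 0.1005). Targets and members of the PPAR fatty acid response, to which Pdk4 also belongs, were called in 4 of 18 cases. Angptl4, a secreted inhibitor of lipoprotein lipase, had 0.713 and 0.569 FPKM in CD38 KO and 7.36 and 6.57 FPKM in WT (adjusted p = 0.000232). Fabp3, a fatty acid carrier, rose 3.08-fold (0.00538), Ppargc1a, a coactivator of mitochondrial genes, 1.27-fold (0.0308), and the beta-oxidation enzyme Acaa2 1.17-fold (0.0278). The call of Fabp3 held in 3 of the 4 fits without 1 library, and those of Ppargc1a and Acaa2 in none of them.

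**Figure D4:**
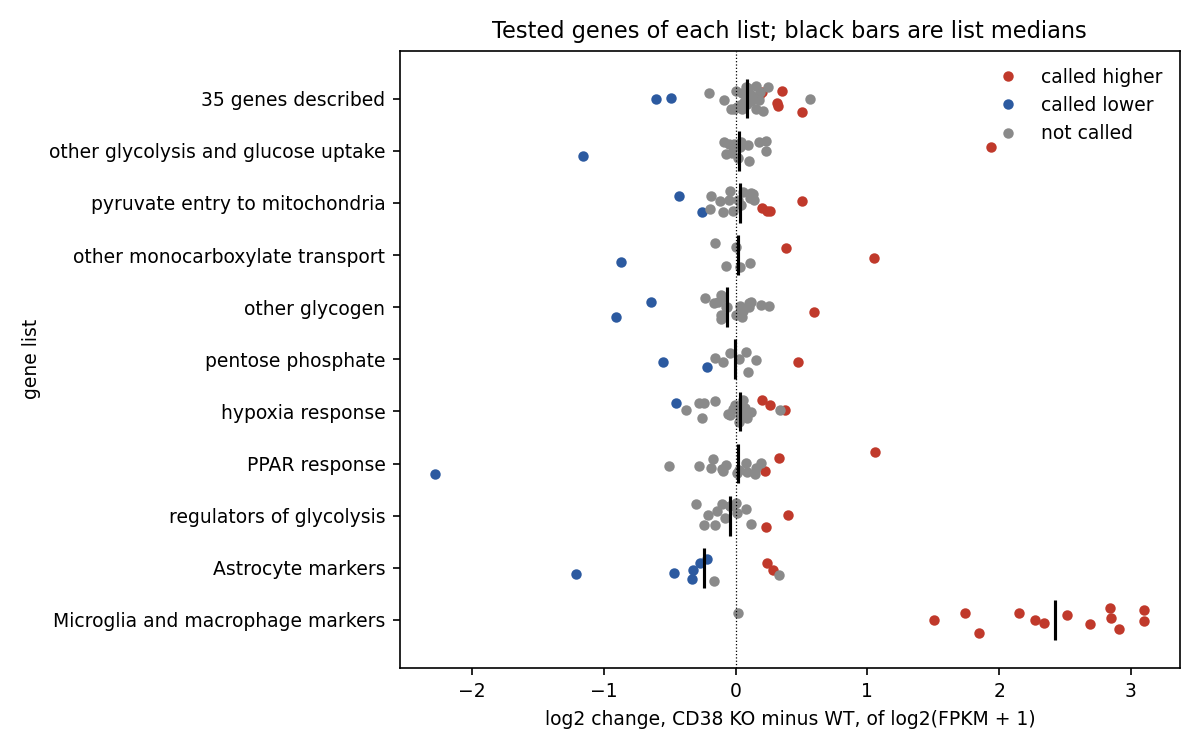
Log2 change (CD38 KO minus WT, of log2(FPKM + 1)) of every tested gene of the 35, of 8 related lists and of the astrocyte and microglia markers; colours give the call and black bars the list medians. The pathway lists centre near 0 (median 0.08 for the 35 genes), the microglia and macrophage markers at 2.42.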

How the data were processed

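The deposited values are FPKM per gene, 1 file per library, per the file headers. Per the submitters' processing notes the tools were STAR 2.7.0f, Cufflinks 2.2.1 and bcl2fastq 2.17, and the build was GRCm38. Neither the annotation release nor a scaling step is given in the sources used here. Libraries were stranded and polyA selected, per the labels' protocols. Positions came from GENCODE M21 (55226 of 55467 IDs matched). Where a symbol had more than 1 ID, as Aldoa did, the ID of highest mean was used.

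The 13064 genes whose mean reached 1 FPKM were tested on log2(FPKM + 1) by limma (version 3.58.1, R 4.3.3), with genotype as the only term and trended moderation. P-values were adjusted by Benjamini-Hochberg across these genes. The added 1 shrinks changes of low genes; printed folds are ratios of mean FPKM without it. Depth was estimated from the whole-fragment steps of low values in 17493 single-transcript genes, where 92.1% to 93.0% of values under 10 fragments came within 0.1 of a whole number.

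Replicates are separate libraries; nothing says they are separate animals or cultures, so p-values measure the spread between these samples only. The genes and lists were chosen with earlier results of these data known. All 35 genes are named; called genes and the most abundant gene of each step are given per library, and of each related list up to 4 called genes of smallest p. Python 3.11.15 served for other steps.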

Additional observations from a re-analysis of the deposited data

How the results depend on the processing

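Pfkp was called in all 15 alternatives, Aldoc and Ldhb in 14 and the other 5 called genes in 6 to 8. With no filter on low values, which tests more genes, 0 of the 35 genes were higher and 1 lower, and 430 and 312 over the whole table. The other lists then had 1 call (other glycolysis), 3 (pyruvate entry), 0 (monocarboxylate carriers) and 1 each (pentose phosphate, low oxygen, PPAR, regulators). Median-of-ratios scaling left 3 of the 35 higher (Hk2, Ldhb and Pdk4). Without a trend in the moderation 2 were higher (Hk2 and Ldhb), and pyruvate entry, low oxygen and regulators had 2, 2 and 1 calls. A filter of 5 FPKM, which drops low genes such as Slc16a3 and Pygm, left 0, 1 and 2 calls in other glycolysis, carriers and PPAR.

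Over all genes tested, the differences between replicates 1 and 2 did not go together in the 2 genotypes (correlation of deviations -0.161). The summed FPKM of the 35 genes, however, was higher in replicate 1 of both. It was 10282 against 9900 in CD38 KO and 9398 against 8930 in WT. Whether the replicate numbers pair the libraries is thus not settled. With the replicate block 610 genes were higher and 427 lower, 2 of the 35 were higher (Ldhb, and Pgam1 as a gained call), the other 5 higher calls ended (adjusted p 0.0815 to 0.1005), and pyruvate entry, PPAR and regulators had 3, 2 and 1 calls. Crossed numbers, a choice made after seeing the data, gave 1102 higher and 859 lower, with 6 and 2 of the 35. Those 6 were not the same genes as in the main fit. The calls of Hk2 and Gpi1 ended (adjusted p 0.0503 and 0.0539), and Slc16a3 and Gbe1 were gained (0.0485 and 0.0443).

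Without 1 library, which leaves a lone sample assumed to vary like the other group, 306 to 458 genes were higher and 225 to 284 lower. Of the 35, 1 to 1 was higher (Ldhb), and their median log2 change was 0.061 to 0.142. Calls were 1 to 2 in other glycolysis, glycogen, pentose phosphate and PPAR, 2 to 2 in pyruvate entry, 0 to 2 in carriers and low oxygen and 0 to 0 in regulators.

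Signs turned only in uncalled values: with quantile normalization Pfkfb2 (-0.007) and Pkm (-0.001), with median-of-ratios scaling Gys1 (-0.004). Without 1 library the ranges were -0.185 to 0.12 for Pfkl, -0.034 to 0.061 for Pfkfb2, -0.055 to 0.024 for Pfkfb4, -0.001 to 0.093 for Pkm, -0.03 to 0.144 for Ldha, -0.028 to 0.331 for Pdk1 and -0.043 to 0.047 for Gys1. The log2 ratio differences ranged from -0.098 to 0.083 for Eno2 to Eno1 and -0.246 to 0.132 for Pfkm to Pfkl. Except where the alternative itself adds or drops genes or samples, the cause was not tested. With 2 libraries per genotype, changes as small as those of most of these genes are not resolved.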

Other observations

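The pentose phosphate branch, which draws on the same glucose phosphate, had 3 of 10 tested genes called, 1 higher and 2 lower. That is 30.0%, beside 14.4% of all genes tested. Pgd, the branch's NADPH-making dehydrogenase of phosphogluconate, had 74.2 and 80.3 FPKM in CD38 KO and 116 and 112 FPKM in WT. It fell 1.47-fold (limma log2 change -0.56, adjusted p = 0.00276) and was called in all 4 fits without 1 library. Tkt, transketolase, fell 1.16-fold (0.0424), and Prps2, which makes the ribose donor of nucleotides and NAD+, rose 1.41-fold (0.00782). The call of Tkt ended in all 4 of those fits (up to 0.180) and that of Prps2 in 2 of them (up to 0.0727).

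Among 15 tested genes of a list drawn up for regulators of glycolysis 2 were higher and none lower. That is 13.3%, beside 14.4% of all genes tested. Being on this list does not make a gene a known regulator of glycolysis. Sirt3, the mitochondrial NAD+-dependent deacylase, had 32.2 and 30.8 FPKM in CD38 KO and 23.3 and 24.1 FPKM in WT (adjusted p = 0.00838). Ppp1r15a, a stress-induced phosphatase subunit, had 63.8 and 61.8 FPKM in CD38 KO and 51.2 and 55.5 FPKM in WT (0.0480). Both calls ended without any 1 library (up to 0.0868 and 0.219).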
